A study of Mus musculus with 24 samples.

Results

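The baseline nuclear transcriptomes of neurons and glia were compared in the hippocampus of sham (SH) mice, 6 of the 12 mRNAseq libraries of a study of kainic acid (KA) epileptogenesis. The members were 3 libraries of NeuN+ nuclei (neurons) and 3 libraries of NeuN- nuclei (glia), taken by their labels, and each pool of animals gave 1 library of either kind. SH animals were adult male C57/BL6N mice that received the same anaesthesia, craniotomy and analgesia as KA animals but saline in place of KA in the cortex above the right hippocampus. Right hippocampi were taken 24 hours after the injection and combined into 3 pools. Replicate 1 combined the hippocampi of 4 animals, while 2 animals each went into the other pools. SH tissue is therefore operated and not naive tissue, and every value below is that of a pool.

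NeuN is the protein product of Rbfox3, a splicing factor of most mature neurons, and nuclei that bind an antibody against it can be sorted from those that do not. The NeuN- nuclei of the hippocampus come mostly from oligodendrocytes, which wrap axons in myelin, from their precursors (OPC), from astrocytes, which clear transmitters and potassium, and from microglia, the resident macrophages. Nuclei of vessels and any neurons that bind little antibody also fall into this fraction, so that "glia" below names the gate and not a pure cell type. Nuclear RNA holds unspliced and newly made transcripts, and levels in it are those of the nucleus and not of the whole cell.

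The 6 libraries held between 11092113 and 40364768 counts, and between 36165 and 46572 genes with at least 1 count. The library of most counts, SH glia 3, had the fewest genes. SH neurons 3, the deepest neuron library with 36959237 counts, had the fewest genes among neurons, 39704. The library SH glia 1 was amplified from 0.05 ng RNA in 15 cycles and the other 5 from 1 ng in 10 cycles. SH glia 1 had the lowest summed level of the pan-neuronal markers, 658 CPM against 1512 and 1643 CPM in the other glia libraries, and SH neurons 3 had the highest summed level of the oligodendrocyte markers among neurons, 1666 CPM against 487.5 and 510.5 CPM. Levels are given as CPM, counts scaled to the size of the library with TMM factors, always in the order of replicates 1, 2 and 3. The difference between the fractions is given as logFC, the log2 ratio of neurons to glia within pools, so that a positive logFC means a higher level in NeuN+ nuclei. FDR denotes the Benjamini-Hochberg adjusted p value of the edgeR quasi-likelihood test over 37598 genes, and a gene was called at an FDR below 0.05.

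Rbfox3 itself, on chromosome 11 from 118489762 to 118911597 (mm10), was measured first as a check of the sort. It was at 168, 235 and 274 CPM in neurons and 24.1, 56.9 and 53.1 CPM in glia, a logFC of 2.40 (SE 0.23, FDR 4.99e-06). All 3 neuron libraries lay above all 3 glia libraries, although the transcript was not absent from glia.

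Of 37598 genes tested, 5322 (14.2%) were higher in neurons and 2841 (7.56%) higher in glia. Among the 20346 protein-coding genes these shares were 21.5% (4380 genes) and 11.6% (2368 genes). The 3 neuron libraries lay above the 3 glia libraries without overlap in 5293 genes (14.1%), and below them in 3223 genes (8.57%). The surplus of calls towards neurons depended on scaling and on the pools used. Of all calls, 65.2% were higher in neurons with TMM factors, 55.0% with RLE factors and 47.1% with library size alone. The median logFC of all genes was 0.14, -0.02 and -0.17 under these scalings. With TMM factors the share was 62.2% without replicate 3 (median -0.043) and 43.4% without replicate 1 (median 0.009). Without the pools of the low-input libraries (SH replicate 1 and KA replicate 2) 2116 genes were called higher in neurons and 3374 higher in glia, a share of 38.5%, and without the pairing of libraries by pool the counts were 2276 and 1757. Calls that held in each of the 16 alternative analyses that tested the gene numbered 1373 in neurons and 1616 in glia, and for most groups of genes below this count is given as calls held.

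Markers of 13 cell types were examined next. Of 15 pan-neuronal genes 14 were higher in neurons (median logFC 1.83, against 0.14 over all genes and 0.21 over protein-coding genes), of which 7 held. Thy1, a surface glycoprotein of projection neurons, was at 96.2, 62.9 and 103 CPM in neurons and 7.16, 11.98 and 15.2 CPM in glia (logFC 2.94, SE 0.28, FDR 3.38e-06). Syt1, the calcium sensor of synaptic vesicles, was at 1051, 948 and 1458 CPM in neurons and 92.5, 297 and 248.8 CPM in glia (logFC 2.57, SE 0.39, FDR 1.55e-04). The groups did not overlap for either gene. Tubb3, a tubulin used as a neuronal marker, was not called, at 60.8, 61.9 and 56.7 CPM in neurons and 45.3, 65.0 and 44.9 CPM in glia.

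Of 24 markers of excitatory hippocampal neurons 20 were higher in neurons and none in glia (median logFC 1.95, 13 held). Slc17a7, the vesicular glutamate transporter of these cells, had the largest logFC of the list, 3.37 (SE 0.59, FDR 5.58e-04), at 1614, 1316 and 2858 CPM in neurons and 42.0, 286 and 403 CPM in glia. Fibcd1, a marker of CA1 pyramidal cells, was at 120, 164 and 195 CPM in neurons and 2.17, 35.4 and 33.5 CPM in glia (logFC 3.26, FDR 4.38e-04). The lowest glia value of both genes was that of replicate 1. Prox1, the homeobox factor of dentate granule cells, was not called, with 82.5, 149 and 219 CPM in neurons and 103, 159 and 206 CPM in glia, and neither was Slc17a6, the second vesicular glutamate transporter, with 26.9, 15.6 and 14.7 CPM against 25.8, 28.1 and 27.0 CPM.

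Markers of inhibitory neurons did not all lie on the same side. Of 23 genes 15 were higher in neurons and 5 higher in glia (median logFC 1.77, 9 and 3 held). The first set held Lamp5, at 71.8, 43.9 and 67.2 CPM in neurons and 0.724, 11.5 and 7.77 CPM in glia (logFC 3.47, SE 0.57, FDR 3.35e-04), the cannabinoid receptor gene Cnr1 (2.35) and the GABA-synthesizing enzymes Gad1 (1.51) and Gad2 (1.83). Those higher in glia included Ndnf, Reln, Nxph1 and Erbb4. Reln, an extracellular glycoprotein of Cajal-Retzius cells and of some interneurons, was at 50.2, 67.4 and 81.3 CPM in neurons and 251, 302 and 401 CPM in glia (logFC -2.26, SE 0.26, FDR 1.86e-05), and the groups did not overlap. Ndnf, a marker of neurogliaform and of Cajal-Retzius cells, was at 17.1, 11.2 and 20.9 CPM in neurons and 102, 68.6 and 134 CPM in glia (logFC -2.62, FDR 7.93e-06). Reln and Ndnf held in every alternative, whereas Nxph1 (-0.67) and Erbb4 (-0.67) each held in 10 of 16 and had overlapping libraries.

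**Figure D1:**
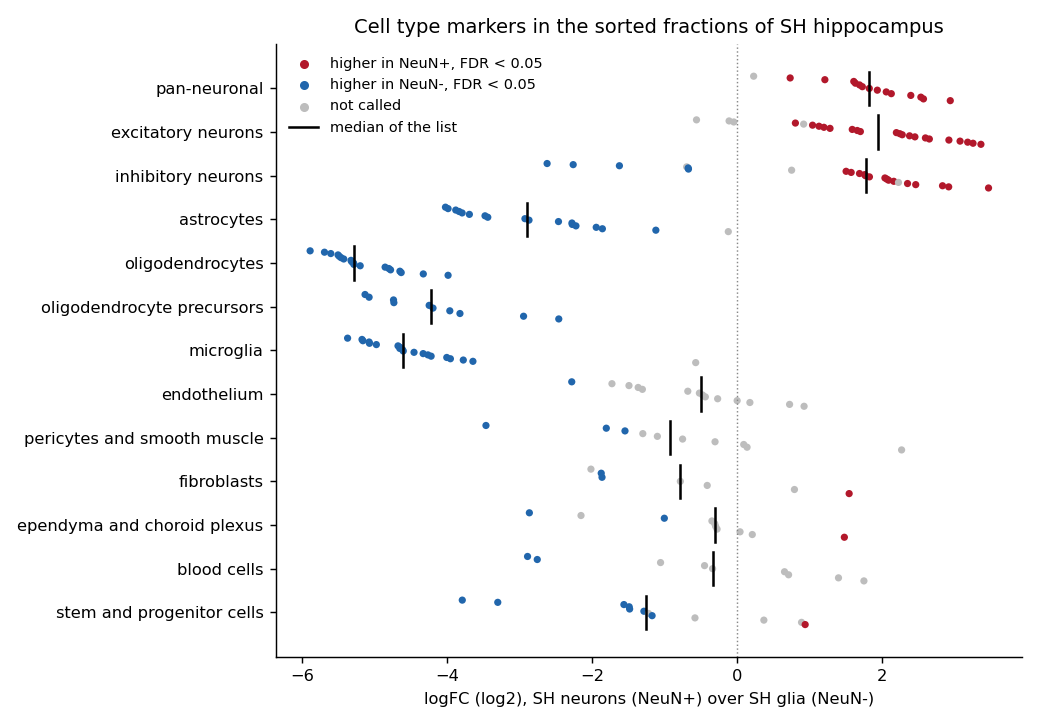
Points are the logFC (log2, SH neurons over SH glia) of each tested member of 13 lists of cell type markers, coloured by the call at an FDR below 0.05, and vertical bars are the medians of the lists. Medians lie at 1.83 for pan-neuronal genes and at -5.29, -4.22, -4.61 and -2.90 for oligodendrocytes, their precursors, microglia and astrocytes, while the lists of vessels, fibroblasts, ependyma and blood lie between -0.92 and -0.30.

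All 19 oligodendrocyte markers were higher in glia, and all 19 calls held (median logFC -5.29). Gjc3, a connexin of oligodendrocytes, had the largest difference of the list (logFC -5.89, SE 0.60, FDR 7.20e-06), with 2.24, 6.87 and 28.9 CPM in neurons and 533, 306 and 782 CPM in glia. SH neurons 3 held the highest value among the neuron libraries, and glia still lay above it without overlap.

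All 10 markers of OPC were higher in glia (median logFC -4.22, all 10 held). Olig2, a basic helix-loop-helix factor of the whole lineage, was at 2.72, 7.42 and 24.3 CPM in neurons and 213, 279 and 413 CPM in glia (logFC -5.13, SE 0.56, FDR 1.20e-05), and Pdgfra, the receptor for the mitogen PDGF-AA, had a logFC of -4.74. Of 20 microglial genes 19 were higher in glia (median logFC -4.61, all 19 held). The fractalkine receptor gene Cx3cr1 was at 4.90, 3.58 and 10.8 CPM in neurons and 211, 167 and 389 CPM in glia (logFC -5.38, SE 0.26, FDR 5.08e-08), without overlap. Aif1, which encodes the microglial protein Iba1, was low in both fractions and was not called, at 2.97, 1.14 and 2.25 CPM in neurons and 2.33, 2.34 and 4.45 CPM in glia.

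Of 18 astrocyte markers 17 were higher in glia (median logFC -2.90, 16 held). Slc1a3, the glutamate transporter GLAST, was at 29.5, 24.4 and 154 CPM in neurons and 855, 577 and 932 CPM in glia (logFC -4.02, SE 0.53, FDR 5.49e-05). Gjb6, the astrocytic connexin 30, had a logFC of -3.99 and Aqp4, the water channel of astrocytic endfeet, -3.69. The sodium bicarbonate cotransporter gene Slc4a4 was the exception, with 66.6, 200.1 and 236 CPM in neurons and 115, 181 and 196 CPM in glia. The astrocyte list summed to between 528 and 1470 CPM in neurons and between 3220 and 5080 CPM in glia. In these bulk libraries fewer cells of a type and less RNA per cell cannot be told apart.

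Lists of markers of vessels, fibroblasts, ventricles and blood had low summed levels, at most 299 CPM per list in any library, though single members were not low. The counts of these short lists stand beside 21.5% and 11.6% of all protein-coding genes called towards neurons and glia. Of 14 endothelial markers 1 was called, the glucose transporter gene Slc2a1 (logFC -2.28), which glia also use, and the defining genes Cldn5, Cdh5 and Pecam1 were at no more than 6.51 CPM in any library. The list as a whole summed to between 151 and 299 CPM in glia and between 59.4 and 76.7 CPM in neurons. Of 10 genes of pericytes and smooth muscle 3 were higher in glia, with Vtn at 2.18, 4.72 and 3.55 CPM in neurons and 80.3, 19.7 and 35.6 CPM in glia (logFC -3.46, FDR 6.58e-05), followed by Kcnj8 (-1.80) and Pdgfrb (-1.55). Of 7 fibroblast genes Slc6a13 (-1.86) and Col1a2 (-1.87) were higher in glia, while Dcn, a small proteoglycan, was higher in neurons, at 77.2, 39.8 and 42.8 CPM in neurons and 24.6, 16.2 and 13.2 CPM in glia (logFC 1.55, FDR 9.40e-05). Among 10 genes of ependyma and choroid plexus Foxj1 (-2.87) and Ttr (-1.0) were higher in glia and Kl (1.48) in neurons. These genes summed to 89.5, 35.1 and 51.5 CPM in neurons and 199.8, 35.3 and 26.3 CPM in glia, highest in replicate 1 of either fraction. Of 9 blood genes Lyz2 (-2.89) and Ptprc (-2.76), which microglia share with leukocytes, were higher in glia, and no haemoglobin gene was called. Of 12 genes of stem and progenitor cells 7 were higher in glia, led by Hes5 (-3.79) and Sox2 (-3.30), and Dcx, a microtubule protein of young neurons, was higher in neurons (0.94). In these lists the calls of Dcx and Kl held in 8 of 15 and 12 of 16 alternatives, Kcnj8 and Ttr held in 12 of 15 and 13 of 16, and 3 of the 7 progenitor genes higher in glia held in all.

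Functions of neurons were then followed from receptor to nucleus. Glutamate acts through AMPA and kainate receptors, which open quickly, through NMDA receptors, which pass calcium, and through metabotropic receptors, which signal through G proteins. Of 15 AMPA receptor subunits and auxiliary proteins 11 were higher in neurons and 1 in glia (median logFC 2.09, 9 and 1 held). Gria2, the subunit that limits calcium entry, was at 3389, 3367 and 5556 CPM in neurons and 585, 998 and 1417 CPM in glia (logFC 2.09, SE 0.36, FDR 5.40e-04). The largest positive difference in the list was that of Shisa6, an auxiliary protein of AMPA receptors, at 57.6, 152 and 255 CPM in neurons and 2.01, 36.4 and 32.1 CPM in glia (logFC 3.13, FDR 4.29e-05). Cacng4, an auxiliary subunit also made by glia, went the other way, at 2.18, 6.15 and 8.53 CPM in neurons and 56.7, 62.9 and 73.8 CPM in glia (logFC -3.66, SE 0.39, FDR 1.08e-05). Gria4 was not called, with 86.2, 104 and 137 CPM in neurons and 53.8, 72.7 and 97.7 CPM in glia, and these values overlapped.

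Of 7 kainate receptor genes, the targets of KA itself, 5 were higher in neurons and none in glia (median logFC 1.48, 3 held). The auxiliary protein gene Neto1 had the largest logFC, 2.24 (SE 0.28, FDR 3.28e-05), at 72.0, 92.5 and 140 CPM in neurons and 15.1, 22.4 and 25.9 CPM in glia, and Grik5 (1.81), Grik4 (1.68), Grik2 (1.48) and Neto2 (1.30) followed. Grik1 had 48.4, 49.2 and 67.5 CPM in neurons and 21.1, 44.2 and 54.2 CPM in glia and Grik3 9.99, 33.9 and 36.0 CPM against 11.6, 19.96 and 28.6 CPM, and neither was called.

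The 7 NMDA receptor genes divided by subunit, with 4 higher in neurons and 1 in glia (median logFC 1.15, 3 and 1 held). The obligatory subunit gene Grin1 was at 419, 703 and 744 CPM in neurons and 19.7, 114 and 91.2 CPM in glia (logFC 3.33, SE 0.43, FDR 4.89e-05), and Grin2a (3.26), Grin2b (2.31) and Grin2d (1.15) were also higher in neurons. Grin2c was higher in glia, at 0.424, 2.49 and 18.8 CPM in neurons and 68.4, 48.3 and 75.5 CPM in glia (logFC -4.12, SE 0.77, FDR 9.63e-04). The glia libraries lay above the neuron libraries of Grin2c without overlap, and the highest neuron value was again that of replicate 3. Grin3a and Grin3b were not called.

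A similar division held for metabotropic receptors, where 6 of 7 were higher in neurons and 1 in glia (median logFC 1.80, 4 and 1 held). Grm2, an inhibitory receptor of presynaptic terminals, was at 128, 145 and 266 CPM in neurons and 11.3, 33.9 and 38.9 CPM in glia (logFC 2.77, FDR 3.38e-05). Grm3, an inhibitory receptor of astrocytes and some neurons, was at 9.99, 18.2 and 28.2 CPM in neurons and 185, 172 and 257 CPM in glia (logFC -3.53, SE 0.29, FDR 1.10e-06), without overlap.

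GABA, the main inhibitory transmitter, acts on chloride channels of type A and on G protein coupled receptors of type B. Of 14 subunits 13 were higher in neurons and 1 in glia (median logFC 2.12, 10 and 0 held). Gabrd, the delta subunit of extrasynaptic receptors of dentate granule cells, was at 106, 53.2 and 90.5 CPM in neurons and 4.18, 9.74 and 10.8 CPM in glia (logFC 3.33, SE 0.38, FDR 1.56e-05). Gabrg1 was the subunit that was higher in glia, at 24.7, 8.30 and 17.6 CPM in neurons and 53.4, 29.3 and 40.2 CPM in glia (logFC -1.37, FDR 0.0012), a call that held in 15 of 16 alternatives.

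**Figure D2:**
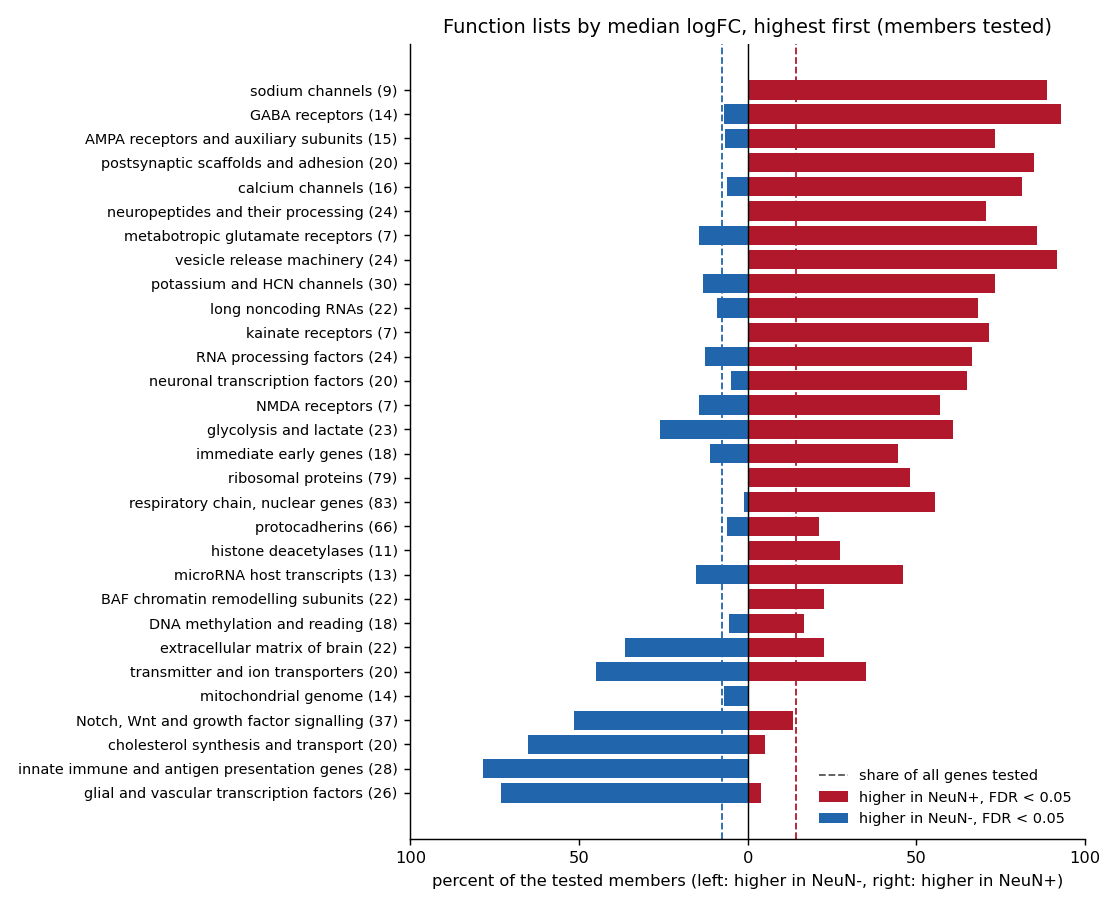
Bars are the percent of the tested members of each of 30 lists called higher in SH neurons (right) or in SH glia (left) at an FDR below 0.05, in order of the median logFC, with the number tested in parentheses and dashed lines at 14.2% and 7.56%, the shares over all genes. Sodium channels, with 8 of 9 members higher in neurons, stand at the top, and glial and vascular transcription factors, with 19 of 26 higher in glia, at the bottom.

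Voltage-gated channels carry the action potential and set how a cell fires. Of 9 sodium channel genes 8 were higher in neurons and none in glia (median logFC 2.26, 6 held). Scn3b, an accessory beta subunit, had the largest logFC, 2.89 (SE 0.36, FDR 3.77e-05), at 355, 387 and 658 CPM in neurons and 23.9, 86.0 and 105 CPM in glia. The pore subunit genes Scn2a (2.42), Scn1a (2.41), Scn8a (2.26) and Scn3a (1.79) were all called, and Scn7a was not, at 14.9, 7.97 and 7.35 CPM against 4.90, 7.69 and 2.09 CPM. Of 16 calcium channel genes 13 were higher in neurons and 1 in glia (median logFC 2.05, 11 and 1 held). Cacnb2, a beta subunit, was at 199, 378 and 315 CPM in neurons and 20.8, 76.6 and 36.8 CPM in glia (logFC 2.88, SE 0.24, FDR 1.39e-06). Cacna2d4 was the gene higher in glia, at 2.12, 8.43 and 2.53 CPM in neurons and 21.3, 22.1 and 32.4 CPM in glia (logFC -2.78, FDR 1.41e-04).

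Of 30 potassium and HCN channel genes 22 were higher in neurons and 4 in glia (median logFC 1.63, 14 and 2 held). Towards glia the share was close to the 11.6% of all protein-coding genes, and towards neurons it was above their 21.5%. The largest positive difference was that of Kcnj9, a G protein gated inward rectifier, at 143, 169 and 281 CPM in neurons and 4.66, 29.9 and 40.6 CPM in glia (logFC 3.31, SE 0.43, FDR 5.13e-05). Kcnj10, the channel Kir4.1 through which astrocytes and oligodendrocytes take up potassium, was at 2.54, 3.46 and 5.06 CPM in neurons and 101, 47.0 and 81.9 CPM in glia (logFC -4.33, SE 0.37, FDR 1.65e-06), and its partner Kcnj16 had a logFC of -3.79. Kcna1 (-1.47) and the pacemaker channel gene Hcn2 (-1.16) were also higher in glia, and the libraries of each of these 4 genes did not overlap.

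Transporters of transmitters and ions fell on both sides, with 7 of 20 higher in neurons and 9 higher in glia (median logFC -0.39, 3 and 9 held). The chloride exporter gene Slc12a5 (KCC2), which keeps GABA inhibitory, was at 194, 333 and 373 CPM in neurons and 8.92, 69.4 and 61.4 CPM in glia (logFC 3.05, SE 0.43, FDR 9.14e-05). The chloride importer gene Slc12a2 (NKCC1) was at 77.0, 60.9 and 136 CPM in neurons and 744, 559 and 869 CPM in glia (logFC -3.05, SE 0.28, FDR 2.55e-06). Neuron and glia libraries of either gene did not overlap, in opposite directions. Glutamate uptake was divided in the same way, with the neuronal transporter gene Slc1a1 at a logFC of 1.44 and the astrocytic Slc1a3 and Slc1a2 at -4.02 and -1.94. Among beta subunits of the sodium pump Atp1b1 (2.73) was higher in neurons and Atp1b2 (-1.49) in glia. The glycine transporter gene Slc6a9 (-2.56), the GABA transporter gene Slc6a11 (-2.30) and the glutamine transporter gene Slc38a3 (-3.61) were higher in glia.

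**Figure D3:**
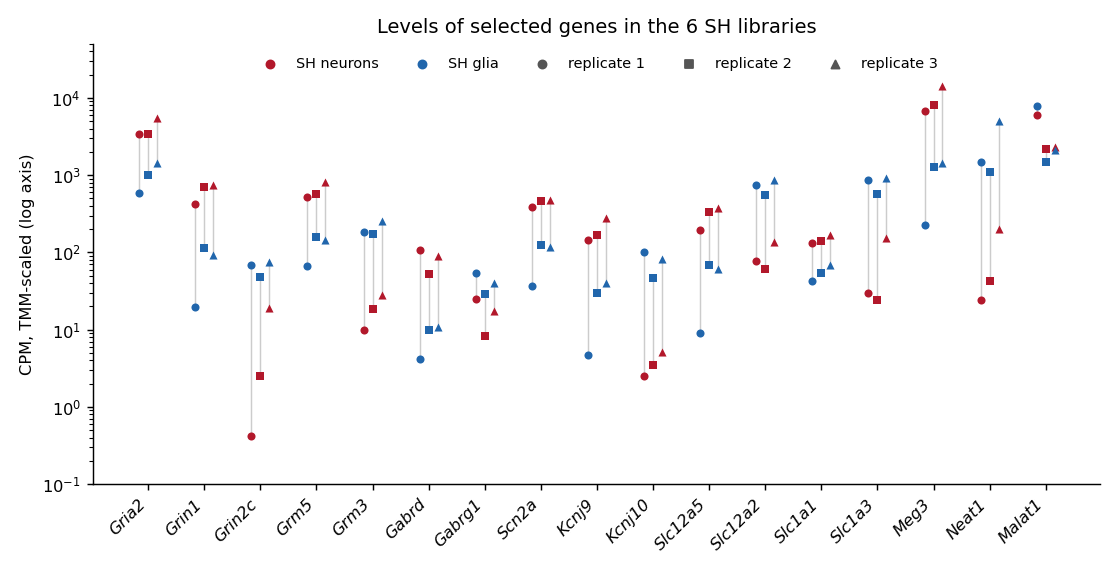
Points are the level (CPM, TMM-scaled, log axis) of 17 genes in each SH library, with neurons in red, glia in blue, a symbol for each replicate, and lines that join the libraries of a pool. Gria2, Grin1, Grm5, Gabrd, Scn2a, Kcnj9, Slc12a5, Slc1a1 and Meg3 lie higher in neurons and Grin2c, Grm3, Gabrg1, Kcnj10, Slc12a2, Slc1a3 and Neat1 higher in glia in each pool, whereas the fractions overlap for Malat1.

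Of 24 genes of vesicle release 22 were higher in neurons and none in glia (median logFC 1.75, 10 held). Syt7, a calcium sensor of slow release, was at 148, 197 and 251 CPM in neurons and 8.602, 39.6 and 43.0 CPM in glia (logFC 2.94, SE 0.34, FDR 2.07e-05), and the priming factor gene Unc13a had a logFC of 2.93. Vamp2, the vesicle SNARE, was not called at 346, 541 and 586 CPM in neurons and 291, 364 and 549 CPM in glia, and neither was Sv2a, the binding site of levetiracetam, at 265, 337 and 416 CPM and 347, 302 and 384 CPM. Of 20 postsynaptic genes 17 were higher in neurons and none in glia (median logFC 2.07, 11 held). Camk2a, the kinase of synaptic plasticity, was at 329.5, 669.8 and 873 CPM in neurons and 14.5, 119 and 136 CPM in glia (logFC 3.18, SE 0.44, FDR 7.77e-05), and Camk2b had a logFC of 2.95. The adhesion genes Nrxn2 and Nlgn3 were not called.

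Neuropeptides are cut from precursors in dense core vesicles. Of 24 genes for peptides, granins and processing enzymes 17 were higher in neurons and none in glia (median logFC 1.97, 12 held). Cck, the peptide of a class of basket cells, was at 359, 111 and 144 CPM in neurons and 29.9, 19.2 and 22.7 CPM in glia (logFC 2.92, SE 0.29, FDR 5.81e-06). Replicate 1 had the highest value of Cck in either fraction, and so it did for Sst, at 225, 47.4 and 86.6 CPM in neurons and 40.8, 16.3 and 18.1 CPM in glia (logFC 2.09, FDR 5.56e-05). Scg2, a granin, was at 412, 169.5 and 275 CPM in neurons and 24.8, 51.4 and 54.3 CPM in glia (logFC 2.68). Tac1, Adcyap1, Nts, Cartpt, Trh, Scg3 and Cpe were not called.

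The promoters of peptide genes are shown because 5 of the 20 in RefSeq (25%) held the letters TGACGTCA, the cAMP response element bound by CREB. The window ran from 250 bases before to 50 bases after the start. Of 15615 promoters of tested protein-coding genes 2.5% held these letters. The 5 were those of Sst, Scg2, Chgb, Pcsk1 and Cartpt, of which the first 4 were called, and the list was not built on promoters. Below are the 120 bases before the start of these 4 genes, 5′ to 3′ on the strand of the gene, with the element in capitals. They lie in GRCm38.p6 (mm10) at chr16:23890845-23890964 (minus strand), chr1:79440027-79440146 (minus), chr2:132781522-132781641 (plus) and chr13:75089737-75089856 (plus).
Sst: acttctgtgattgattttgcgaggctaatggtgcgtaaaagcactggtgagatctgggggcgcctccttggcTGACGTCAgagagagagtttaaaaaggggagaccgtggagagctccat
Scg2: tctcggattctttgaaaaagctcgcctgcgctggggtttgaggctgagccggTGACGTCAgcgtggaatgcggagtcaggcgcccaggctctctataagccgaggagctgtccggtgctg
Chgb: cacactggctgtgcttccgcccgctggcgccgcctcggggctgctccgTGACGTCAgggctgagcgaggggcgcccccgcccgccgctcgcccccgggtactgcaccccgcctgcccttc
Pcsk1: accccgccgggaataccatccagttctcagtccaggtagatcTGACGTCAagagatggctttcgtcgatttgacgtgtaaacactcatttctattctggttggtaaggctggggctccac

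The element begins 48, 68, 72 and 78 bases before the start in these 4 promoters. Chgb, a granin of dense core vesicles, had a logFC of 2.27, and Pcsk1, the convertase that cuts precursors, 2.34. A match of letters is a description of the sequence and not evidence of binding.

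Across all promoters that could be matched, 15615 of 20343 protein-coding symbols tested, the same element stood in 3.43% of the 3383 promoters of genes higher in neurons, 1.99% of the 1862 of genes higher in glia and 2.29% of the 10370 of genes not called. The letters GAGGAAGT, an ETS motif read by the microglial factor PU.1, stood in 1.86%, 4.30% and 3.32% of them on either strand. The AP-1 letters TGACTCA stood in 2.72%, 4.56% and 4.90%, the SOX letters AACAATG in 1.48%, 2.42% and 3.73%, and the E-box CAGCTG in 15.3%, 18.3% and 15.0%. The NRF1 motif was found in 2.42%, 1.02% and 1.19%, and the letters TTCAGCACC of REST sites in 0.591%, 0.483% and 0.318%. Median GC content was 61.3%, 60.7% and 55.3% and the median number of CpG per promoter 21, 17 and 11, so that the groups differed in base composition as well as in these letters.

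Immediate early genes follow activity within minutes. Of 18, 8 were higher in neurons and 2 in glia (median logFC 0.81, 5 and 1 held). Towards glia the share was close to the 11.6% of all protein-coding genes, and towards neurons it was above their 21.5%. Npas4, a neuronal factor induced by calcium, was at 19.7, 16.7 and 21.8 CPM in neurons and 0.724, 5.65 and 2.90 CPM in glia (logFC 2.81, SE 0.41, FDR 1.24e-04), and Egr4 (2.61), Egr3 (2.26), Nr4a2 (2.18) and Nr4a3 (1.91) were called in every alternative as well. Dusp1, a MAP kinase phosphatase, was higher in glia, at 22.6, 17.2 and 27.4 CPM in neurons and 42.5, 95.8 and 62.2 CPM in glia (logFC -1.52, FDR 0.00407), and Jund had a logFC of -0.77. Fos was not called, at 23.2, 12.01 and 12.5 CPM in neurons and 12.8, 50.2 and 6.07 CPM in glia, nor were Jun, Junb and Egr1. For Fos, Jun, Egr1, Ier2 and Dusp1 the highest of the 6 values was that of SH glia 2. The median of this list was -0.01 without the pools of the low-input libraries.

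Transcription factors fix the identity of cells. Of 20 neuronal factors 13 were higher in neurons and 1 in glia (median logFC 1.45, 7 and 0 held). Neurod6, a factor of pyramidal cells, was at 164, 105 and 176 CPM in neurons and 9.97, 22.5 and 21.5 CPM in glia (logFC 3.08, SE 0.34, FDR 1.20e-05), and Neurod2 had a logFC of 2.92. St18, a zinc finger factor, was higher in glia, at 59.4, 53.6 and 76.8 CPM in neurons and 107, 97.2 and 154 CPM in glia (logFC -0.90, FDR 0.00395). Of 26 glial and vascular factors 19 were higher in glia and 1 in neurons (median logFC -2.85, 0 and 18 held). Sox10, which drives myelin genes, was at 6.24, 8.47 and 35.3 CPM in neurons and 471, 351 and 709 CPM in glia (logFC -5.29, SE 0.51, FDR 4.31e-06). Spi1, which encodes PU.1, was at 4.12, 3.46 and 1.51 CPM in neurons and 9.24, 17.9 and 17.7 CPM in glia (logFC -2.35, FDR 7.28e-04). Glis3 was higher in neurons, at 30.1, 68.1 and 131 CPM against 8.52, 34.2 and 27.1 CPM in glia (logFC 1.70), with overlapping libraries. The vascular factors Erg, Sox17, Foxc1 and Tbx18 were not called.

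The promoter of C1qc, a subunit of the complement component C1q made by microglia, is shown for the PU.1 letters. These stood in 2 of 13 microglial promoters, those of C1qc and Ctss, against 3.12% of promoters of tested protein-coding genes. The E-box letters stood in more of the same promoters, 6 of 13, against 15.5%. PU.1 is the product of Spi1. C1qc was at 11.5, 4.85 and 8.21 CPM in neurons and 257, 118 and 219.6 CPM in glia (logFC -4.61, SE 0.23, FDR 5.08e-08), without overlap. The 220 bases before its start lie at chr4:136892915-136893134 (GRCm38.p6, minus strand), and the capitals mark the letters on the opposite strand, 195 bases before the start.
C1qc: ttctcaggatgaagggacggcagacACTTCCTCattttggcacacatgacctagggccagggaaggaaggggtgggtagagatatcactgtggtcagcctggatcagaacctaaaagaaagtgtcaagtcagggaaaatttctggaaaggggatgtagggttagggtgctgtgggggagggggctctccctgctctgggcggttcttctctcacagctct

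RNA-binding proteins shape splicing in either fraction. Of 24 factors 16 were higher in neurons and 3 in glia (median logFC 1.47, 12 and 1 held). Towards glia the share was close to the 11.6% of all protein-coding genes, and towards neurons it was above their 21.5%. Celf5 was at 137, 121 and 169 CPM in neurons and 7.56, 19.9 and 30.1 CPM in glia (logFC 3.05, SE 0.40, FDR 5.48e-05), and the neuronal splicing factors Rbfox1 (2.12), Rbfox2 (2.12) and Srrm4 (2.30) were higher in neurons too. Qk (quaking), needed for myelin transcripts, was at 207, 153 and 365 CPM in neurons and 1500, 1664 and 2625 CPM in glia (logFC -3.05, SE 0.29, FDR 3.41e-06). Mbnl1 (-1.0) and Nova1 (-0.92) were also higher in glia, and the libraries of these 3 genes did not overlap.

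Counts of chromatin genes stand beside the 21.5% and 11.6% of all protein-coding genes called towards neurons and glia. Of 18 genes that write, erase or read DNA methylation 3 were higher in neurons (Mbd5, Mbd1 and Mbd4) and 1 in glia, the dioxygenase gene Tet1, at 27.4, 40.1 and 41.6 CPM in neurons and 81.3, 59.4 and 80.3 CPM in glia (logFC -1.03, SE 0.22, FDR 0.00307). The median of this list was 0.11, and -0.06 with RLE factors and -0.21 with library size, under which none of the 3 was called, and no call of the list held in every alternative. Dnmt3a was not called, at 132, 267 and 389.8 CPM in neurons and 154, 239 and 382 CPM in glia. Of 11 histone deacetylases Hdac6 (1.39), Hdac3 (1.15) and Hdac2 (0.96) were higher in neurons and none in glia, a list whose median of 0.42 became -0.04 without the low-input pools and of which no call held. Of 22 subunits of the BAF remodelling complex 5 were higher in neurons and 3 of these held. The 5 included Actl6b and Dpf1, subunits of the neuronal form of the complex, at 255, 168 and 366 CPM in neurons and 8.20, 29.4 and 53.2 CPM in glia (logFC 3.34, SE 0.44, FDR 5.61e-05) and 84.7, 103 and 132 CPM in neurons and 10.9, 25.2 and 29.6 CPM in glia (logFC 2.37, FDR 7.25e-06), besides Ss18l1 (1.60), Smarcd3 (1.34) and Smarcd2 (0.82). Their counterparts Actl6a, Dpf2, Ss18 and Smarcd1 were not called, with Actl6a at 63.4, 50.3 and 58.1 CPM in neurons and 49.7, 45.7 and 57.6 CPM in glia. The median of the BAF list was 0.18, and -0.14 with library size, under which 5 subunits were called higher in glia.

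Genes of glycolysis and lactate lay on both sides, with 14 of 23 higher in neurons and 6 in glia (median logFC 0.82, 2 and 5 held). The calls towards neurons and glia were 2 and 6 without replicate 1 and 4 and 5 without pairing. Without the low-input pools they were 6 and 6 (median 0.29). The glucose transporters divided, with Slc2a3 (GLUT3) at 177, 158 and 219.6 CPM in neurons and 24.2, 51.0 and 50.1 CPM in glia (logFC 2.21, SE 0.27, FDR 3.11e-05) and Slc2a1 (GLUT1) at 22.5, 27.3 and 40.2 CPM in neurons and 219, 85.9 and 155 CPM in glia (logFC -2.28, FDR 3.67e-05). So did isozymes, with the neuronal enolase gene Eno2 at a logFC of 2.54 and the astrocytic aldolase gene Aldoc at -2.28, and the hexokinase genes Hk1 (0.88) and Hk2 (-1.76). Of the monocarboxylate transporters, which move lactate, Slc16a3 (-1.62) and Slc16a1 (-1.06) were higher in glia and Slc16a7 (0.60) in neurons.

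Of 20 genes of cholesterol synthesis and transport 13 were higher in glia and 1 in neurons (median logFC -0.86, 1 and 7 held). Apoe, the main lipid carrier of the brain, was at 65.0, 51.8 and 248 CPM in neurons and 3288, 794 and 1582 CPM in glia (logFC -4.08, SE 0.58, FDR 9.83e-05), and the sterol regulator gene Srebf1 had a logFC of -3.32. The exception was Cyp46a1, the hydroxylase by which neurons dispose of cholesterol, at 678, 421 and 728 CPM in neurons and 58.0, 97.3 and 159 CPM in glia (logFC 2.61, SE 0.34, FDR 5.00e-05). Libraries of the 3 genes did not overlap.

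The extracellular matrix list had 5 of 22 genes higher in neurons and 8 in glia (median logFC -0.33, 4 and 8 held). The share towards neurons was close to the 21.5% of all protein-coding genes, and that towards glia above their 11.6%. Hapln2, a link protein of the nodes of Ranvier, was at 27.1, 23.0 and 111 CPM in neurons and 1846, 803 and 2515 CPM in glia (logFC -5.23, SE 0.47, FDR 2.51e-06), followed by Sparc (-4.35) and Lama2 (-3.20). Hapln4, a link protein of perineuronal nets, was at 56.8, 72.5 and 113 CPM in neurons and 2.09, 15.0 and 20.8 CPM in glia (logFC 3.00). The collagen IV genes Col4a2 (3.06) and Col4a1 (2.75), components of basement membranes, were higher in neurons, with 279.5, 289.8 and 956 CPM in neurons and 23.2, 57.4 and 99.7 CPM in glia for Col4a2, as were Fn1 (1.91) and Spock2 (1.42).

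Of 37 genes of Notch, Wnt and growth factor signalling 19 were higher in glia and 5 in neurons (median logFC -0.61, 1 and 13 held). The share towards glia was above the 11.6% of all protein-coding genes, and that towards neurons below their 21.5%. Erbb3, a neuregulin receptor of oligodendrocytes, was at 4.12, 8.98 and 21.1 CPM in neurons and 225, 115 and 363 CPM in glia (logFC -4.46, SE 0.38, FDR 1.59e-06), and the Notch effector gene Hes5 had a logFC of -3.79. The genes higher in neurons were the Notch ligand gene Jag2 (2.65), Gfra2 (1.86), Ntrk3 (1.59), Hey1 (0.99) and Fzd3 (0.78). Ntrk2, the receptor of BDNF, was not called, at 137, 368 and 449 CPM in neurons and 297, 350.4 and 369.7 CPM in glia.

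Of 28 innate immune and antigen presentation genes 22 were higher in glia and none in neurons (median logFC -1.95, 15 held). Besides C1qa, also a member of the microglial list, the complement gene C4b (-4.29) and the RNA sensor gene Tlr7 (-4.30) led this list. Cd14, the coreceptor for lipopolysaccharide, was at 1.39, 2.78 and 0.898 CPM in neurons and 28.9, 28.2 and 23.1 CPM in glia (logFC -4.07, SE 0.28, FDR 2.68e-07). Tnf, a cytokine, was at 0.182, 0.464 and 0.0816 CPM in neurons and 4.58, 8.96 and 0.926 CPM in glia (logFC -4.18), low in every library. Il1b and C3 were not called and did not pass 2.40 CPM in any library.

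Long noncoding RNAs often stay in the nucleus. Of 22 tested 15 were higher in neurons and 2 in glia (median logFC 1.60, 10 and 2 held). Meg3, in the imprinted Dlk1-Dio3 region on chromosome 12 (109541001 to 109571726), was at 6684, 8110 and 14100 CPM in neurons and 226, 1262 and 1454 CPM in glia (logFC 3.6, SE 0.58, FDR 2.84e-04). Its downstream neighbours Rian (2.65) and Mirg (2.88) were higher in neurons as well. Neat1, the scaffold of paraspeckles on chromosome 19 (5824708 to 5845478), was at 23.9, 42.1 and 204 CPM in neurons and 1484, 1113 and 5042 CPM in glia (logFC -5.09, SE 0.39, FDR 6.35e-07). Malat1, its neighbour on the same chromosome (5795690 to 5802672), was not called, at 6105, 2198 and 2291 CPM in neurons and 7784, 1477 and 2091 CPM in glia. Sox2ot, the transcript that overlaps Sox2, was higher in glia (-3.12).

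Transcripts that host microRNAs were counted as genes, and mature microRNAs were not measured. Of 13 tested 6 were higher in neurons and 2 in glia (median logFC 0.32, 4 and 1 held, and -0.22 without the low-input pools). Mir124a-1hg, host of the neuronal miR-124, was at 639, 252 and 688 CPM in neurons and 32.1, 49.6 and 101 CPM in glia (logFC 3.12, SE 0.43, FDR 7.13e-05). Mir132, at 0.908, 1.39 and 2.73 CPM in neurons and 0.241, 0.146 and 0.149 CPM in glia, had a logFC of 3.25 (FDR 0.0014), and Mir22hg one of 1.93. Mir219a-2 was at 0, 0.0421 and 0.449 CPM in neurons and 3.54, 2.38 and 6.39 CPM in glia (FDR 5.69e-04) and Mir338 at 0, 0 and 0.0408 CPM in neurons and 0.322, 0.292 and 0.986 CPM in glia (FDR 0.0255), the oligodendrocytic microRNA genes of the list. No fold is given for either, with counts at or near 0 in neurons. Mir132, Mir219a-2 and Mir338 are the microRNA genes themselves and not longer host transcripts, so that "host" beside miR-132-3p below means Mir132. Their counts were low, which also limits the logFC of Mir132. Of the exon bases of Mir219a-2 and Mir338, 67.0% and 88.8% overlap a gene on the opposite strand. Counting ignored strand, and reads that overlap both genes were left out by default. Mir670hg was also higher in neurons (1.38). From RefSeq, 1 mature arm each is shown for 4 of the called genes, since the seed, bases 2 to 8 in capitals, fixes which transcripts an arm can pair with, and no seed is shared among these 4. They lie in GRCm38.p6 at chr11:75173723-75173744 (plus), chr11:75463772-75463793 (plus), chr2:29845689-29845709 (minus) and chr11:120014781-120014802 (minus).
miR-132-3p, host higher in neurons: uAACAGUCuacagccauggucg
miR-22-3p, host higher in neurons: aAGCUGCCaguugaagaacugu
miR-219a-5p, gene higher in glia: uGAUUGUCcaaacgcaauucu
miR-338-3p, gene higher in glia: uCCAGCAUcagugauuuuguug

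Housekeeping genes of translation and respiration showed small differences, most of them towards neurons. Of 79 ribosomal protein genes 38 were higher in neurons and none in glia (median logFC 0.79), but the count was 22 with RLE factors, 6 without pairing and 2 without replicate 1, and Rpl35a alone held in every alternative, at 18.3, 11.1 and 17.9 CPM in neurons and 5.95, 3.55 and 6.21 CPM in glia (logFC 1.59, SE 0.30, FDR 9.82e-04). Of 83 nuclear genes of the respiratory chain 46 were higher in neurons and 1 in glia (median logFC 0.70), with 3 and 1 held. Atp5g1, a subunit of ATP synthase, was at 44.8, 22.5 and 36.7 CPM in neurons and 15.1, 9.35 and 8.88 CPM in glia (logFC 1.63, SE 0.24, FDR 1.15e-04), and Cox6c had a logFC of 1.56. Cox6b2 was the gene higher in glia, at 0.303, 0.421 and 1.39 CPM in neurons and 14.7, 3.89 and 8.19 CPM in glia (logFC -3.63, FDR 3.93e-04). Of 14 tested genes of the mitochondrial genome only mt-Co1 was called, higher in glia (logFC -0.75, FDR 0.048). This call did not hold, since none was called without pairing, without a filter on low counts, without replicate 1 or without replicate 3, whereas 4 were called higher in glia with RLE factors, 5 with library size or DESeq2 and 9 with at least 10 counts in every library. Mitochondrial counts made up at most 0.21% of a library.

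Protocadherins, adhesion molecules that let neurites tell themselves apart, were called in 14 of 66 cases towards neurons and in 4 towards glia (median logFC 0.44, 5 and 3 held, and -0.14 without the low-input pools, where 6 and 11 were called). The share towards neurons was close to the 21.5% of all protein-coding genes, and that towards glia below their 11.6%. The largest positive differences were those of Pcdha2 (2.84) and Pcdha5 (2.69). Their exons are shared with other genes of the cluster over 53.3% and 54.9% of their bases. Reads that overlap several genes were left out by default, so that these counts rest mainly on the unshared bases. Pcdh8, a gene outside the cluster, was at 184, 199 and 304 CPM in neurons and 17.4, 57.7 and 51.8 CPM in glia (logFC 2.57, SE 0.39, FDR 1.66e-04). The 4 higher in glia were Pcdhgc3 (-3.18), Pcdh15 (-2.16), Pcdh11x (-2.04) and Pcdh9 (-1.10). Pcdh15 was at 50.2, 55.5 and 72.0 CPM in neurons and 225, 214 and 371 CPM in glia, without overlap.

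Outside these lists, genes were ranked by logFC among those called, without overlap and with a mean of at least 5 CPM in the higher fraction. The protein-coding gene with the largest positive logFC was Slc26a10, a member of a family of anion exchangers, at 248.9, 174 and 378 CPM in neurons and 2.33, 19.7 and 51.4 CPM in glia (logFC 3.98, SE 0.59, FDR 1.39e-04). Cpne7 (3.95) and Cpne6 (3.71), both copines that bind membranes in the presence of calcium, followed with the receptor tyrosine kinase gene Ltk (3.89), the potassium channel gene Kcnh3 (3.77), the axon guidance receptor gene Robo3 (3.71) and the pseudokinase gene Camkv (3.69). The serotonin receptor gene Htr1b (3.75) and the adrenergic receptor gene Adra1d (3.70) stood in the same set, as did Tnfrsf25 (3.75), Vill (3.74) and Rad51ap2 (3.73). For 11 of these 12 genes, all but Rad51ap2, the lowest value was that of SH glia 1.

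Among the genes highest in glia outside the lists, the cell adhesion gene Mcam led, at 1.21, 7.42 and 17.5 CPM in neurons and 204, 231 and 444 CPM in glia (logFC -5.47, SE 0.46, FDR 1.41e-06). Tmem63a (-5.45), 9930111J21Rik1 (-5.39), Olfml1 (-5.33), Galnt6 (-5.31), the sterol hydroxylase gene Cyp27a1 (-5.29), the semaphorin receptor gene Plxnb3 (-5.29), Tmem88b (-5.28), Tmem98 (-5.23), the carbonic anhydrase gene Car14 (-5.21) and the connexin gene Gjb1 (-5.20) had differences of like size. Ptgds, the prostaglandin D synthase, was at 139, 32.5 and 175 CPM in neurons and 10050, 991 and 3996 CPM in glia (logFC -5.20, SE 0.53, FDR 6.70e-06), with glia libraries that differed widely from each other. All 12 held in every alternative in which they were tested.

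Of 6867 long noncoding genes 446 (6.49%) were higher in neurons and 241 (3.51%) in glia. Of 6768 pseudogenes these were 150 (2.22%) and 95 (1.4%), and of 2618 unclassified transcripts (TEC) 310 (11.8%) and 122 (4.66%). All of these shares were below the 14.2% and 7.56% over all genes. Median levels of these classes were 0.879, 0.654 and 1.84 CPM, against 2.25 CPM over all genes. The largest differences towards neurons outside the list above were those of Gm27032, at 106, 41.4 and 89.2 CPM in neurons and 0.482, 4.43 and 10.6 CPM in glia (logFC 4.10, SE 0.69, FDR 4.07e-04), E030013I19Rik (3.76), Gm20063 (3.73), Gm9017 (3.67), Gm36937 (3.67) and Gm27000 (3.61). Towards glia they were those of 1500015L24Rik, at 0.182, 0.127 and 0.531 CPM in neurons and 13.1, 8.71 and 23.0 CPM in glia (logFC -5.79, SE 0.51, FDR 2.05e-06), 1700047M11Rik (-5.31), Bcas1os2 (-5.26), Gm13293 (-5.26), Gm34776 (-5.16) and Bcas1os1 (-4.97). Bcas1os1 and Gm36937 overlap exons of a gene on the opposite strand over 35.5% and 40.1% of their bases.

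The most abundant protein-coding transcripts were ranked by CPM per kb of exon. In neurons the annotated gene Gm10800 stood first, with a mean of 3987 CPM per kb, but it ranged from 706 to 7388 CPM per kb among the 3 libraries. Snhg11, which GENCODE M21 lists as protein-coding, had 1610 CPM per kb (1219 to 2143), followed by Rsrp1, Gm21738, Rnf112, Aplp1, Cpne6 and Camkv. In glia the 8 highest included Gm10800, Ptgds with 3040 CPM per kb, Aplp1, Rsrp1, Gm21738, Apoe and Hapln2. Gm10800, Rsrp1, Gm21738 and Aplp1 were among the 8 highest in both fractions and were not called.

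**Figure D4:**
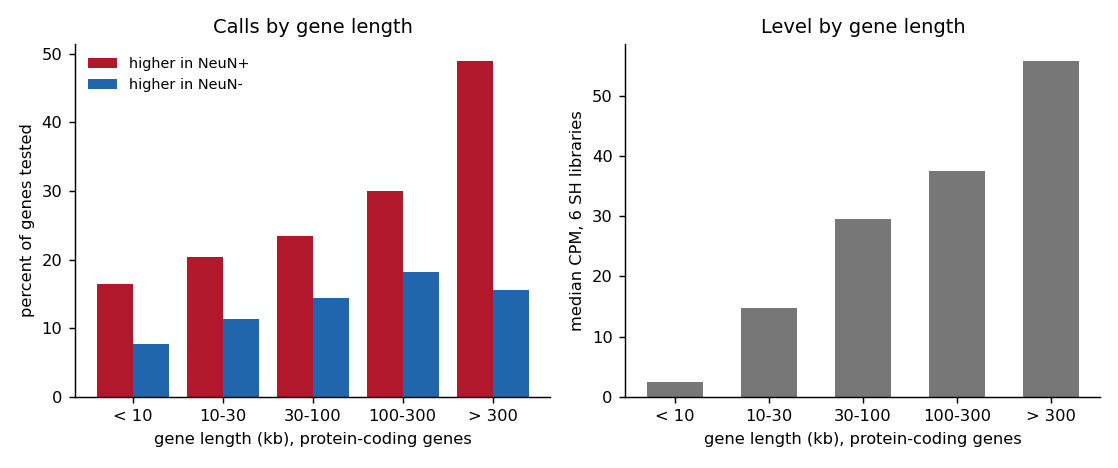
Left, the percent of tested protein-coding genes called higher in SH neurons (red) or SH glia (blue) at an FDR below 0.05 in 5 classes of gene length in kb. Right, the median CPM over the 6 SH libraries in the same classes, which rises with length from 2.41 to 55.8 CPM together with the share called in neurons, from 16.4% to 49.0%.

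The share of protein-coding genes called higher in neurons was greater among longer genes. It was 16.4% of 6542 genes under 10 kb, 20.4% of 6278 from 10 to 30 kb, 23.4% of 5065 from 30 to 100 kb, 30% of 1904 from 100 to 300 kb and 49.0% of 557 above 300 kb. The share called higher in glia was 7.63%, 11.3%, 14.4%, 18.2% and 15.6%. The median logFC was 0.73 in the longest class and between 0.18 and 0.25 in the other 4. Median levels rose over the same classes from 2.41 to 55.8 CPM, and the part of level and of counting precision in these shares was not tested.

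The same contrast in KA pools, which share no library with SH, gave values for each gene beside those above. Of the 5322 genes higher in SH neurons, 98.5% had the same sign in KA pools and 78.4% were also called, against 48.1% and 14.1% of all genes tested, and 7 were called in the opposite direction. Of the 2841 genes higher in SH glia these shares were 95.8% and 71.3%, against 51.9% and 6.65%, and 17 were called in the opposite direction. Rbfox3 had a logFC of 2.76 in KA pools, Gjc3 -5.20 and Cx3cr1 -4.74.

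**Figure D5:**
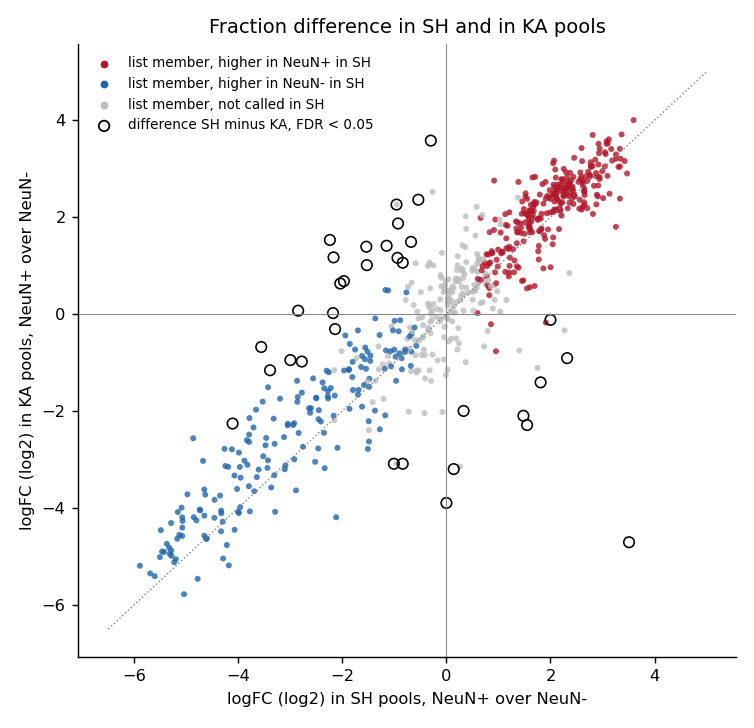
Points are list members at their logFC (log2, NeuN+ over NeuN-) in SH pools (horizontal) and in KA pools (vertical), coloured by the call in SH, with a dotted line of equality. Circles are the 33 genes whose difference between fractions itself differed between treatments at an FDR below 0.05, of which 14 were called in opposite directions.

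The fraction difference itself differed between SH and KA in 33 genes (0.0878% of those tested), 11 with the larger logFC in SH and 22 with the larger in KA. At an unadjusted p below 0.05 there were 692 and 1058, without pairing by pool no gene passed, with 216 and 286 at an unadjusted p below 0.05, and with DESeq2 83 and 184 genes passed. A pair of the 33 belonged to the lists above. Acan (aggrecan), the core proteoglycan of perineuronal nets, was at 2.78, 7.71 and 6.45 CPM in SH neurons and 12.1, 12.5 and 7.53 CPM in SH glia, and at 68.1, 89.6 and 65.5 CPM in KA neurons and 10.4, 14.8 and 23.1 CPM in KA glia (logFC SH minus KA -3.22, FDR 0.0178). Pcdh11x was at 31.4, 32.8 and 40.1 CPM in SH neurons and 124, 124 and 188 CPM in SH glia, and at 100, 194 and 242 CPM in KA neurons and 75.1, 91.1 and 184 CPM in KA glia (logFC SH minus KA -2.67, FDR 0.007). KA neurons lay above SH neurons for both genes without overlap.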

How the data were processed

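The authors sorted nuclei of pooled right hippocampi by NeuN, amplified nuclear RNA with an oligo(dT) method, trimmed reads with Trim Galore 0.4.3, aligned them to mm10 with Rsubread and deposited raw counts per GENCODE M16 gene from featureCounts, which by default ignored strand and left out reads that overlap several genes. The sequencer of each library is not given in the sources used here. Symbols and lengths came from GENCODE M21, and 105 of 53379 genes without a symbol there (at most 0.037% of counts) were left out. Total counts ranged from 11092113 to 40364768 in SH and from 7769400 to 32429530 in KA libraries. Methylation data were not used here.

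Differences were tested with the quasi-likelihood test of edgeR 4.0.16 (R 4.3.3) on the deposited counts of all 12 libraries, with pool as a block (6 pools), fraction within treatment, TMM scaling, filterByExpr (minimum count 10, total 15) and Benjamini-Hochberg adjustment. The fit had 4 residual degrees of freedom and a common coefficient of biological variation of 0.403. NeuN+ and NeuN- nuclei with the same number came from the same pool, and their deviations from group means correlated at 0.435, 0.507 and 0.638 in SH and at 0.59, 0.293 and 0.649 in KA pools. Libraries of unlike number correlated at -0.4 to -0.017 in SH and at -0.589 to 0.314 in KA pools. The value of 0.314 was that of KA neurons 1 with KA glia 2, above that of the matching pair of replicate 2. The scripts were tested on simulated data. DESeq2 1.42.0, other scalings, filters, thresholds and the omission of each replicate were alternatives.

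Genes named were members of 13 lists of cell type markers and 30 lists of function (those with the largest logFC on each side, those called against the majority of their list where at most 5, and single members of known role), the 12 protein-coding and 6 long noncoding genes with the largest logFC on each side outside the lists (called, no overlap, at least 5 CPM on average in the higher fraction), and the 8 protein-coding genes with the highest CPM per kb in each fraction. The comparison and the lists were chosen with earlier results of these data known. The motifs searched in promoters were chosen after the counts were seen. Oip5os1, 2900055J20Rik, Mir100hg, Mir143hg and Mir181a-1hg were not analysed here. Some list members that this rule would name are not reported here, though they count in the totals of their lists. Promoter and microRNA sequences were those of RefSeq (GRCm38.p6). Pools of mice were the replicates. With pool as a block, p values rest on how far the difference between fractions varied from pool to pool. This spread was estimated over SH and KA pools together.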

Additional observations from a re-analysis of the deposited data

Results flagged for a closer look

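In 33 genes the difference between neurons and glia itself differed between SH and KA pools at an FDR below 0.05 of edgeR's quasi-likelihood test, and 14 of them were called in opposite directions in the treatments. The values below are the logFC in SH minus the logFC in KA. Without the block of pools none of the 33 was called.

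Pcdh11x, a protocadherin, had a difference of -2.67 (logFC -2.04 in SH and 0.63 in KA), and Acan, which was not called in SH, one of -3.22 (-0.96 and 2.26). Gipr, the receptor of the incretin GIP, had the largest negative difference of those called in both treatments, -3.77 (-2.24 and 1.53). Col27a1, a fibrillar collagen, stood at -3.35 (-2.17 and 1.17), the phosphatase gene Plpp4 at -2.54 (-1.53 and 1.01) and Megf11 at -2.56 (-1.15 and 1.41). Kcnip3, which encodes the calcium sensor DREAM, stood at -2.16 (-0.68 and 1.49), Gdpd2 at -2.80 (-0.93 and 1.87) and the pseudokinase gene Trib2 at -1.90 (-0.84 and 1.06). The antisense gene 1700071M16Rik and the unclassified Gm45153 stood at -2.93 (-1.54 and 1.39) and -2.10 (-0.94 and 1.16).

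A smaller set was higher in neurons in SH and higher in glia in KA pools. Thbd (thrombomodulin) had a difference of 3.22 (1.81 and -1.41), the metalloprotease gene Adam8 one of 3.58 (1.48 and -2.1) and the interferon-induced GTPase gene Iigp1 one of 3.83 (1.55 and -2.29). Ucn2, a peptide of the CRH family with low counts, stood at 8.22 (3.51 and -4.71) and held in 9 of the 14 alternatives that tested it. It was at 0.726, 0.0422 and 0.776 CPM in SH neurons and 0, 0.0974 and 0 CPM in SH glia. In replicate 2 SH glia lay above SH neurons. With SH glia at or near 0, the size of its SH logFC and of the difference cannot be relied on.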

How the results depend on the processing

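Counts of calls moved by over 1.5 times in several analyses. With the SH libraries alone 3547 genes were higher in neurons, without a filter on low counts 3156, at an FDR of 0.25 8222 (and 4445 higher in glia), and without the pools of the low-input libraries 2116. Without the block that pairs the libraries of a pool 2276 and 1757 genes were called, and the difference between SH and KA was called in 0 genes. That difference was called in 267 genes with DESeq2, 19 with library size as scaling, 19 with autosomes only and 177 at an FDR of 0.25, and it could not be fitted with SH libraries alone. Leaving out 1 replicate gave 1860 to 4252 genes higher in neurons, 2071 to 2475 higher in glia and 12 to 34 that differed between SH and KA. The lowest count in neurons was that without replicate 1, the pool of the low-input library, and 3408 were called without replicate 3. The cause was not tested. Of the 5322 and 2841 calls 25.8% and 56.9% held in each alternative that tested the gene, and 9 and 0 turned their sign in at least 1. None of these 9 was a list member. SH glia 1, the shallowest SH library with 11092113 counts, had 40660 genes with at least 1 count. SH glia 3, the deepest with 40364768 counts, had 36165. The part of depth in the calls of genes of few counts was not tested.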
